A study of Mus musculus with 40 samples.

Results

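The astrocyte genes were a list of 10 among the 40213 gene symbols of the count files. The list held 5 identity members (Aqp4, Aldh1l1, S100b, Gja1 and Sox9) and 5 reactivity members (Gfap, Vim, Serpina3n, C4b and Lcn2). They were chosen by name, with no measured value in the rule, and were followed in all 40 libraries, of which each tissue, midbrain and spinal cord, gave 20. In the midbrain 9 of the 10 members passed the filter on low counts, Lcn2 being the exception, and in the spinal cord all 10 passed.

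The mice were male C57BL/6N animals aged 8 weeks when obtained, and every group had 4 libraries per tissue. Con received saline in place of MPTP and at the acupoint GB34. MPTP-Veh received MPTP, a toxin that harms dopaminergic neurons, as 4 intraperitoneal doses of 20 mg/kg spaced 2 h apart. Saline at the acupoint GB34 followed. MPTP-SU received the same MPTP and, from 1 week later, SU-Eohyeol pharmacopuncture (SUEHP), an injected herbal extract, at GB34 in 4 injections at 2 per week. MPTP-SU+S and MPTP-SU+T received in addition either 3 mg/kg of the CB1 antagonist SR141716A, spelled SR141714A in the sample labels, or 5 mg/kg of the PPARγ inhibitor T0070907, each given intraperitoneally. The drugs preceded SUEHP by the study's methods and accompanied it by the labels. The labels do not tie libraries to animals, so p-values measure the spread between these samples, part of which may be technical.

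Astrocytes are the glial cells that clear transmitter and potassium, feed neurons and wrap vessels with their endfeet. Their identity genes are expressed by resting cells: Aqp4 encodes the water channel of the endfeet, Aldh1l1 a folate enzyme, S100b a calcium-binding protein, Gja1 a connexin of gap junctions and Sox9 a transcription factor of the lineage. After injury or inflammation astrocytes become reactive and add intermediate filaments (Gfap and Vim), the protease inhibitor Serpina3n, the complement component C4b and the secreted iron-siderophore binder Lcn2, which neutrophils also store. In whole tissue, fewer cells of a type and less RNA per cell cannot be told apart.

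Library totals were 11958200 to 16639823 estimated counts in the midbrain and 14642808 to 16615378 in the spinal cord. The midbrain marker Th ranged from 17.0 to 109 CPM (counts scaled to a common library size) in midbrain libraries and from 2.29 to 3.79 CPM in spinal cord libraries, and the spinal marker Hoxc8 from 0 to 0.156 and from 54.4 to 77.6 CPM. The rank correlation of a library with the median of the others of its tissue was 0.888 for midbrain MPTP-Veh replicate 4 and 0.987 to 0.997 for all other libraries. In that library mitochondrially encoded genes took 1.35% of the counts, against up to 17.5% in the other midbrain libraries.

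Midbrain MPTP-Veh replicate 4 also stood apart in the astrocyte genes, so the fold changes, calls and overlap counts of the midbrain comparisons that use it are given with and without it. DESeq2 and limma-voom counts are with all libraries. Relative to the median of the other 19 midbrain libraries it held 5.13 times as much Aldh1l1, 4.61 times as much S100b, 3.81 times as much Gfap, 2.36 times as much C4b, 2.18 times as much Sox9 and 1.71 times as much Vim. It was the highest of the 20 midbrain libraries for those 6 members. It was the lowest for Aqp4 (0.131 times the median), Gja1 (0.418 times) and Serpina3n (0.802 times). Members of the same set therefore moved in opposite directions in it: Aqp4 stood at 33.4 CPM and S100b at 1019 CPM in 1 library, against 176 to 337 and 173 to 309 CPM in the other midbrain libraries.

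**Figure D1:**
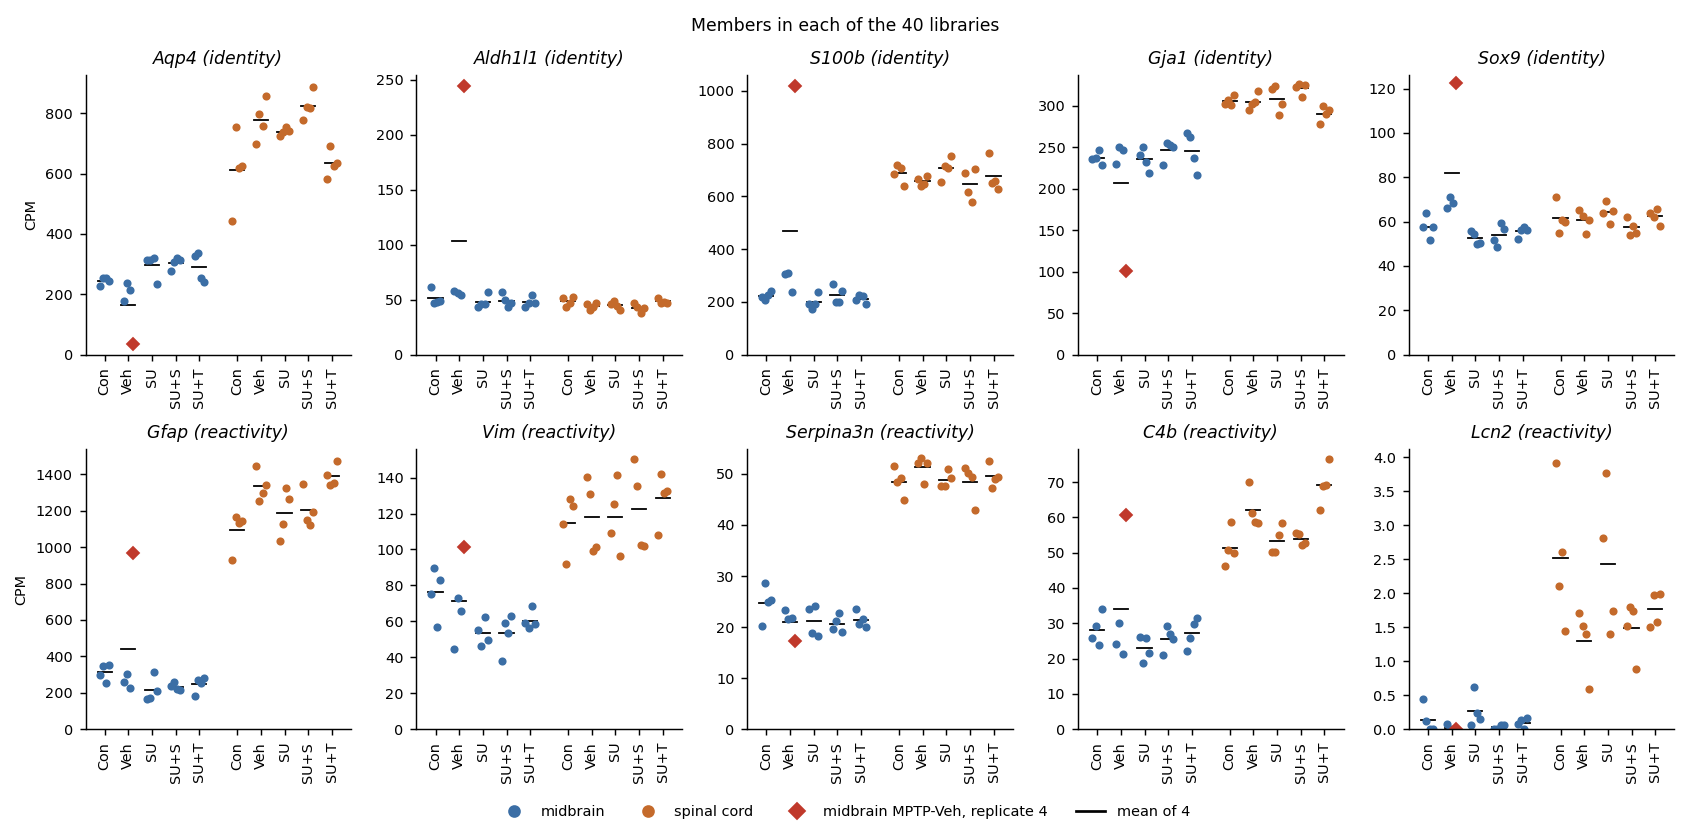
CPM of the 10 members (5 identity, upper row; 5 reactivity, lower row) in each of the 40 libraries, by group, with blue points for the midbrain, orange points for the spinal cord and a bar at each mean of 4; every axis starts at 0. Midbrain MPTP-Veh replicate 4 (red diamond) is the highest midbrain library for 6 members and the lowest for 3, and Gfap lies at 929.9 to 1472 CPM in the spinal cord against 163 to 354 CPM in the other 19 midbrain libraries.

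In Con tissue most reactivity genes and some identity genes were lower in the midbrain than in the spinal cord. Of the 9 members that passed the filter on low counts in each tissue, 5 were lower in midbrain Con than in spinal cord Con past the threshold (adjusted p below 0.05 and more than 1.5-fold, edgeR quasi-likelihood test over 17426 genes), and none was higher. They were 2 of 5 identity members, Aqp4 and S100b, and 3 of 4 reactivity members, Gfap, Serpina3n and C4b. Of the 16073 genes that passed in each tissue 14.9% were called, in either direction, and of all genes tested 16.4%. The values of the Con groups did not overlap for 7 of the 9 members, against 37.6% of the genes that passed in each tissue and 37.3% of all genes. Lcn2 entered this fit through the spinal cord libraries alone, so its lower midbrain level was fixed by the filter and is described separately. For this comparison the 40 libraries were scaled together, so the CPM values differ slightly from those within a tissue.

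Gfap, the main filament of astrocytes, had the largest log2 difference of the members that were well counted in each tissue. It was 314 ± 47.1 CPM in midbrain Con and 1087 ± 116 CPM in spinal cord Con (SD, n = 4 each), a log2 difference of -1.79 ± 0.26 (SE, adjusted p = 1.46e-06 by edgeR). S100b was 223 ± 13.5 and 684 ± 35.6 CPM, with a log2 difference of -1.62 ± 0.23 (edgeR adjusted p = 1.11e-06). For both, no midbrain Con library reached the lowest spinal cord Con library. Aqp4 was 246 ± 12.1 CPM in the midbrain and 607 ± 132 CPM in the spinal cord, a log2 difference of -1.30 ± 0.26 (edgeR adjusted p = 0.000173). The protease inhibitor Serpina3n was 24.9 ± 3.5 and 48.2 ± 2.46 CPM, with a log2 difference of -0.95 ± 0.10 (edgeR adjusted p = 6.28e-10), the smallest SE of the 10 members. C4b was 28.3 ± 4.49 and 51.1 ± 5.45 CPM, with a log2 difference of -0.85 ± 0.18 (edgeR adjusted p = 0.000449).

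The other identity genes were close in the 2 tissues. Sox9 was 57.9 ± 5.13 CPM in midbrain Con and 61.2 ± 6.24 CPM in spinal cord Con, and Aldh1l1 51.3 ± 6.89 and 48.1 ± 3.96 CPM. Their log2 differences were -0.08 ± 0.12 (edgeR adjusted p = 0.664) and 0.09 ± 0.26 (edgeR adjusted p = 0.831), so neither exceeded the spread between libraries. Gja1 was 238 ± 7.56 and 304 ± 6.82 CPM and Vim 76.4 ± 14.4 and 114 ± 15.9 CPM. Both passed the adjusted p with a fold below 1.5, at -0.35 ± 0.14 (edgeR adjusted p = 0.0482) for Gja1 and -0.57 ± 0.18 (edgeR adjusted p = 0.0150) for Vim. Without midbrain MPTP-Veh replicate 4 Vim was past the threshold as well.

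**Figure D2:**
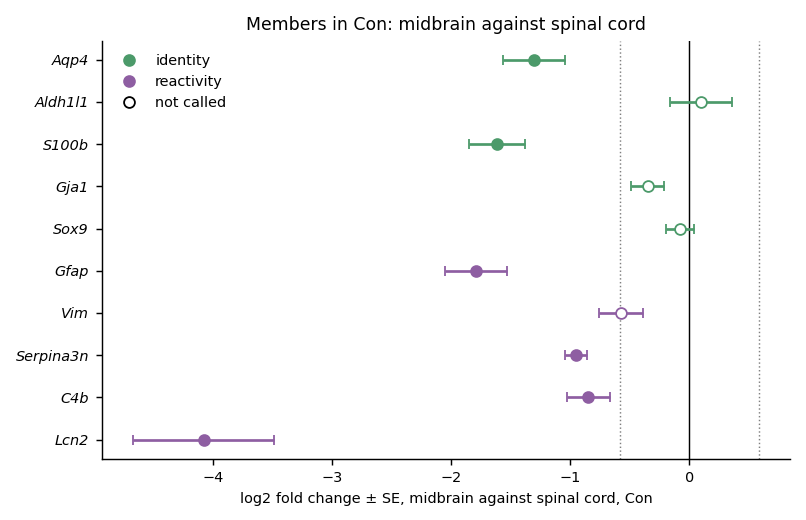
Log2 fold change (± SE) of each member between midbrain Con and spinal cord Con (n = 4 each), identity in green and reactivity in purple, with open points for members not past the threshold and dotted lines at 1.5-fold. The filled points lie on the side of lower midbrain level, from -0.85 for C4b to -1.79 for Gfap among members that passed the filter in each tissue; Lcn2 (-4.08) passed through the spinal cord alone.

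The tissue difference recurred in the MPTP groups, which give other libraries of the same tissues. In each of the 5 groups every midbrain library was below every spinal cord library for Aqp4, Gja1, Gfap and Serpina3n. The same held in 4 of 5 groups for S100b, Vim and C4b. Lcn2 is left out here, since it passed the filter through the spinal cord libraries alone. Sox9 was lower in the midbrain without overlap in 1 group and higher in 1, and Aldh1l1 was higher in 1. The group in which S100b, Vim and C4b overlapped was MPTP-Veh, which holds the library that stood apart. Over all 20 against 20 libraries, the tissues did not overlap for Aqp4 (midbrain at most 338 CPM, spinal cord at least 435 CPM), Gja1 (267 and 273 CPM) and Serpina3n (28.7 and 43.0 CPM). Without that library they did not overlap for Gfap (355 and 915 CPM), S100b (309.6 and 577 CPM), C4b (34.2 and 45.3 CPM) and Vim (90.2 and 92.0 CPM) either. In Con alone 37.3% of all genes did not overlap between the tissues. That share was not counted for the other groups or over all libraries, so the recurrence is not shown to be particular to the members. The spinal cord to midbrain ratio of group means ranged from 3.04 to 5.57 for Gfap, from 1.94 to 2.44 for Serpina3n, and from 1.17 to 1.47 for Gja1.

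Levels were compared between genes per kilobase of each gene's longest protein-coding transcript, whichever form was expressed, and the order depends on that choice. S100b led in each tissue, at 149.7 ± 9.15 CPM per kb in midbrain Con and 464 ± 23.4 in spinal cord Con. Gfap was next, at 118 ± 17.8 and 413 ± 41.4 CPM per kb. In the midbrain Gja1 (74.5 ± 2.33), Aqp4 (48.4 ± 2.36) and Vim (34.7 ± 6.52 CPM per kb) followed, and in the spinal cord Aqp4 (121 ± 25.5) stood above Gja1 (96.0 ± 1.66 CPM per kb), with overlapping libraries. Sox9, Aldh1l1 and Serpina3n lay together in the midbrain at 13.95 ± 1.23, 12.2 ± 1.65 and 12.0 ± 1.68 CPM per kb. In the spinal cord Serpina3n, at 23.5 ± 1.32, stood above Sox9 (14.9 ± 1.63) and Aldh1l1 (11.6 ± 1.00 CPM per kb). C4b was at 5.25 ± 0.835 and 9.55 ± 0.990 CPM per kb, and Lcn2 was the lowest in each tissue.

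The promoters of S100b and Gfap are shown because they are the identity and the reactivity member with the largest well-counted tissue difference. Each run covers 250 bases before and 20 after the RefSeq transcription start in GRCm38.p6, 5′ to 3′ on the gene's strand. S100b lies at chr10:76253586-76253855 (+ strand) and Gfap at chr11:102897181-102897450 (- strand). Capitals mark a nuclear factor I core motif (TTGGCA) in S100b and a STAT motif (TTCNNNGAA) in Gfap.
S100b: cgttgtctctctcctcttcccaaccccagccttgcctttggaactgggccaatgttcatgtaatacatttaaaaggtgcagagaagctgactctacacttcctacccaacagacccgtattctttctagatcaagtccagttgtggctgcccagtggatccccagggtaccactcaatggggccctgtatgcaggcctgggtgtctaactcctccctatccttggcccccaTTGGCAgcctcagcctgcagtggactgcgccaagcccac
Gfap: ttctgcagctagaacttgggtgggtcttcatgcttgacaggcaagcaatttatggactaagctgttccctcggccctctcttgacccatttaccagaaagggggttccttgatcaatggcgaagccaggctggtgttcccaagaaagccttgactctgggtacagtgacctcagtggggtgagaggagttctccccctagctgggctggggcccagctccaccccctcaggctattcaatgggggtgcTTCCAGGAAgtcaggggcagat
Promoters were at hand for 7 of the 10 members, Sox9, C4b and Aqp4 being the others. The STAT motif, searched on both strands of a 300-base window, occurred in 1 of the 7, Gfap, and in 8.30% of the 32851 promoters of the table. Its letters in Gfap, TTCCAGGAA, run from -2 to 7 relative to the start. The nuclear factor I motif occurred in S100b, at -19 to -14, in Lcn2, at -166 to -161 on the opposite strand, and in 14.1% of all promoters. The AP-1 motif TGANTCA was found in Gja1 and in 7.81% of promoters, TATAAA in Vim and in 13.6%, and the C/EBP motif TTGCNNCAA in no member and in 2.08%. These are matches of letters and not tested sites.

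Other genes linked to reactive astrocytes were counted in the same comparison. Here too only genes that passed the filter in each tissue are counted. Of 11 other pan-reactive genes 6 were lower in the midbrain past the threshold and 1 was higher, with a median log2 difference of -0.98 against 0.03 over all such genes. The filament genes Synm (-1.26 ± 0.07) and Nes (-2.09 ± 0.36) and the chaperone Hspb1 (-1.15 ± 0.20) were among the lower ones, and Aspg (1.44 ± 0.41) was the higher one. Of 10 genes of the STAT3 axis, the cytokine pathway upstream of Gfap, 6 were lower and none higher (median -0.78), among them the receptor subunit Il6st (-0.94 ± 0.07), the kinase Jak1 (-0.76 ± 0.08) and Stat3 itself (-0.82 ± 0.07). Of 24 other astrocyte identity genes 3 were lower and 2 higher (median -0.25): the potassium channel Kcnj10 (-1.16 ± 0.09), the bicarbonate transporter Slc4a4 (-0.75 ± 0.19) and the amino acid transporter Slc7a10 (-0.81 ± 0.22) were lower, and the glutamate transporter Slc1a3 (1.47 ± 0.14) and Plpp3 (0.80 ± 0.08) were higher. The A1-associated list had 1 gene lower (C3, -3.94 ± 0.38) and 1 higher (Amigo2, 1.58 ± 0.13) of 12, and the A2-associated list 4 lower and 2 higher of 9. Of 12 complement genes 2 were lower and 1 higher (median 0.19), and none of 3 metallothioneins passed. The shares of the pan-reactive and identity lists were not tested against each other.

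Markers of other cells differed between the tissues as well. The 8 neutrophil markers, none of which passed the midbrain filter, summed to 0.239 to 0.505 CPM in midbrain Con (Camp and Ly6g at 0) and to 5.47 to 51.8 CPM in spinal cord Con, each on its own tissue's scale. All 5 Schwann cell and root markers that passed in each tissue were lower, including Mbp, which is also on the oligodendrocyte list. Oligodendrocyte markers were lower for 3 of 10 and microglial markers for 0 of 8. Of choroid plexus markers 3 of 4 were higher in the midbrain, and of ependymal markers 3 of 8 were lower. Meningeal fibroblast markers had 2 higher and 3 lower of 8, and vessel and neuron markers each 1 higher and 1 lower of 8. The part of these cells in the member differences was not tested.

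In the midbrain of MPTP-Veh mice no member passed the threshold against Con, a comparison that addresses the effect of the toxin. The edgeR test called 0 of 9 members and 0.018% of 16629 genes. An unadjusted p below 0.05 was reached by 3 members, against 3945 of the 16629 genes, and by 2 members without MPTP-Veh replicate 4. DESeq2 called 1 member and limma-voom 0. Sox9 was the 1 member whose groups did not overlap, against 12.4% of all genes, and again the 1 member without replicate 4, against 16.6%. Its Con values were 57.6, 64.0, 51.6 and 57.6 CPM and its MPTP-Veh values 66.2, 71.2, 68.3 and 123 CPM. All 4 MPTP-Veh libraries were above the highest Con library, by a small margin in replicates 1 to 3, and the log2 difference was 0.51 ± 0.15 (edgeR adjusted p = 0.130; exact permutation p = 0.0286, the smallest that 4 against 4 allow). Without replicate 4 it was 0.25 (adjusted p = 0.213). The exact permutation p of 0.0286 follows wherever 2 groups of 4 do not overlap, so here and below it adds nothing to the overlap.

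S100b and Aldh1l1 had the largest differences from Con, and they rested on the same library. S100b was 217, 208, 224 and 239.8 CPM in Con and 307, 309, 237 and 1019 CPM in MPTP-Veh. Replicates 1 and 2 were above all Con libraries and replicate 3 within their range. The log2 difference was 1.07 ± 0.31 (edgeR adjusted p = 0.130) with all libraries and 0.36 (adjusted p = 0.231) without replicate 4. Aldh1l1 changed from 1.01 ± 0.35 (edgeR adjusted p = 0.134) to 0.13 (adjusted p = 0.690) when that library was left out. For Gfap the sign turned, from 0.49 ± 0.34 (edgeR adjusted p = 0.365) to -0.25 (adjusted p = 0.647), and for C4b from 0.27 ± 0.24 to -0.17. Gja1 turned from -0.20 ± 0.18 to 0.03. Aqp4 was at -0.57 ± 0.34 (edgeR adjusted p = 0.297) and -0.23 without the library, Vim at -0.10 and -0.32, and Serpina3n at -0.23 and -0.15. With 3 libraries the 4 tested reactivity members all had negative differences, and 4 of 5 identity members positive ones, none past the threshold.

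In the midbrain MPTP-SU group 4 of 9 members were lower than in MPTP-Veh past the threshold, a comparison that addresses the effect of SUEHP. They were the identity genes S100b, Sox9 and Aldh1l1 and the reactivity gene Gfap, and 13.5% of all genes passed, 724 of them higher and 1513 lower. Without MPTP-Veh replicate 4 none of the 9 passed, and the number of genes past the threshold was 572 in place of 2237. The groups did not overlap for 2 members, S100b and Sox9, against 21.9% of all genes, and for the same 2 without that library, against 24.8%.

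S100b in MPTP-SU was 191, 173, 190.1 and 236 CPM, below the MPTP-Veh values of 237 to 1019 CPM, although the highest MPTP-SU library and the lowest MPTP-Veh library nearly met. Its log2 difference was -1.24 ± 0.31 (edgeR adjusted p = 0.0162) with all libraries and -0.52 (adjusted p = 0.00687) without replicate 4. Sox9 in MPTP-SU was 55.7, 54.2, 49.8 and 50.3 CPM, each below the lowest MPTP-Veh value of 66.2 CPM. Its log2 difference was -0.64 ± 0.15 (edgeR adjusted p = 0.0133) and -0.39 (adjusted p = 0.00401) without replicate 4. For both genes the adjusted p therefore stayed below 0.05 while the fold dropped under 1.5. Aldh1l1 changed from -1.11 ± 0.35 (edgeR adjusted p = 0.0369) to -0.23 (adjusted p = 0.191) and Gfap from -1.03 ± 0.34 (edgeR adjusted p = 0.0429) to -0.30 (adjusted p = 0.318).

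Aqp4, the water channel, had the opposite sign to S100b and Sox9. It was 176, 236, 216 and 33.4 CPM in MPTP-Veh and 314, 314, 319 and 234 CPM in MPTP-SU. Replicates 1 to 3 of MPTP-SU were above every MPTP-Veh library, and replicate 4 fell within their range. The log2 difference was 0.84 ± 0.34 (edgeR adjusted p = 0.0783) with all libraries and 0.50 (adjusted p = 0.0136) without MPTP-Veh replicate 4, under 1.5-fold. The other members were at -0.56 ± 0.25 for C4b (edgeR adjusted p = 0.101), -0.41 ± 0.20 for Vim (0.134), 0.19 ± 0.18 for Gja1 and 0.01 ± 0.13 for Serpina3n. Without the library these 4 lay between -0.20 and -0.04.

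**Figure D3:**
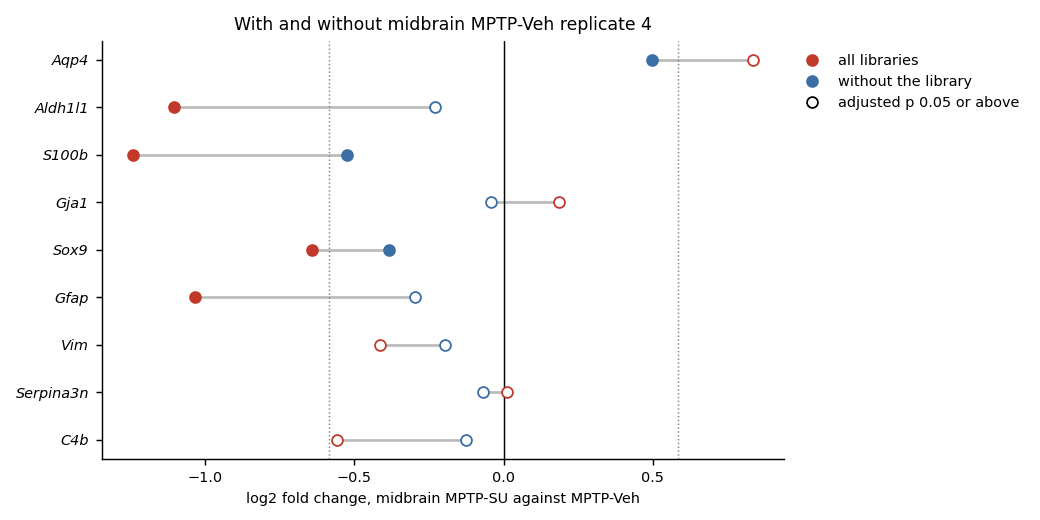
Log2 fold change of the 9 tested members between midbrain MPTP-SU and MPTP-Veh, with all libraries (red, n = 4 against 4) and without MPTP-Veh replicate 4 (blue, 4 against 3); filled points have an adjusted p below 0.05 and dotted lines mark 1.5-fold. The 4 members past both limits with all libraries lie inside the 1.5-fold lines without it, and S100b (-0.52), Sox9 (-0.39) and Aqp4 (0.50) keep an adjusted p below 0.05 inside the 1.5-fold lines.

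Other astrocyte lists in this comparison were mixed. Of 24 other identity genes 2 were higher, the tight junction gene Cldn10 (0.67 ± 0.21) and Slc4a4 (0.78 ± 0.25), and 2 lower, among them Slc7a10 (-1.02 ± 0.30). Of 11 tested pan-reactive genes the cytokine receptor Osmr (0.72 ± 0.24) was higher and Nes (-1.71 ± 0.44) lower. Complement had 3 of 12 lower, C1qa (-1.62 ± 0.46), Cfb (-2.10 ± 0.62) and C3 (-1.74 ± 0.52), and 2 of 3 metallothioneins were lower, Mt1 (-0.86 ± 0.17) and Mt2 (-0.68 ± 0.16). None of the STAT3 axis, 1 A1-associated gene (C3) and 1 A2-associated gene (S100a10, -0.68 ± 0.15) were lower. Microglial markers had 3 of 8 lower and oligodendrocyte markers 1 of 10. Without MPTP-Veh replicate 4 the count was 0 in each of these lists.

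MPTP-SU was also set against Con, neither of which holds the library that stood apart. The edgeR test called 0 of 9 members against 0.764% of all genes. Of the members Vim alone had an unadjusted p below 0.05, against 2673 of 16629 genes, and DESeq2 and limma-voom each called 0 members. No member's groups were free of overlap, which 19.6% of all genes were. The 4 tested reactivity members all had lower means in MPTP-SU, with a median log2 difference of -0.40, and the identity members a median of -0.10. Gfap was 296, 348, 254 and 354 CPM in Con and 163, 171, 317 and 208 CPM in MPTP-SU. Replicate 3 of MPTP-SU lay within the Con range and the other MPTP-SU libraries below it. The log2 difference was -0.54 ± 0.34 (edgeR adjusted p = 0.462). Vim was 75.2, 89.8, 56.7 and 83.0 CPM in Con and 54.9, 46.4, 62.5 and 49.5 CPM in MPTP-SU, with a log2 difference of -0.51 ± 0.20 (edgeR adjusted p = 0.204).

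When MPTP-Veh replicate 4 was left out of the fit, where it bears on the estimate of spread, the filter and the adjustment, the differences stayed at -0.54 for Gfap and -0.51 for Vim and the adjusted p became 0.0425 and 0.0413, still under 1.5-fold. Markers of meningeal fibroblasts, cells that also express Vim, summed to 274 to 487 CPM in Con and 150.1 to 220.02 CPM in MPTP-SU, and Igf2 was the 1 of their 8 genes past the threshold (-1.50 ± 0.32). Choroid plexus markers summed to 44.0, 1269.8, 106.2 and 588.4 CPM in Con replicates 1 to 4, against at most 75.1 CPM in the libraries of the other groups. Con replicates 2 and 4, with the highest of these sums, also had the highest Gfap and Vim of the Con group. The part of these cells in the Gfap and Vim values was not tested. Averaged on the log2 scale, the tested reactivity members of the MPTP-SU libraries lay at -0.625 to -0.094 relative to the Con mean. Con libraries lay at -0.224 to 0.177, so the groups overlapped. MPTP-SU+S lay at -0.524 to -0.189, MPTP-SU+T at -0.375 to -0.129 and MPTP-Veh at -0.323 to 0.672 (replicate 4), so low values were not particular to MPTP-SU. The identity members of MPTP-SU lay at -0.045 to -0.023, a mean over opposite signs such as Aqp4 (0.27) and S100b (-0.17).

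Adding the CB1 antagonist or the PPARγ inhibitor to SUEHP, which asks whether either blocks its effect, gave no called member in the midbrain. Since no member passed in MPTP-SU against MPTP-Veh without MPTP-Veh replicate 4, a block of that effect could not be judged here. The edgeR test called 0 of 9 members against MPTP-SU with either drug, and 0% of all genes in each. No member had an unadjusted p below 0.05, against 274 of 16629 genes for MPTP-SU+S and 283 for MPTP-SU+T. DESeq2 and limma-voom called 0 members. The groups overlapped for all 9 members, whereas 2.15% and 1.96% of all genes did not overlap. Log2 differences ran from -0.04 to 0.19 for MPTP-SU+S, with the highest for S100b (0.19 ± 0.31), and from -0.03 to 0.24 for MPTP-SU+T, with the highest for C4b (0.24 ± 0.24). With MPTP-Veh replicate 4 left out of the fit the highest values were again those of S100b (0.19) and C4b (0.24). In that fit 0 of 9 members had an unadjusted p below 0.05 with either drug. Both comparisons share the MPTP-SU libraries.

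In the spinal cord no member passed the threshold in any comparison. Leaving aside midbrain MPTP-Veh, the coefficient of variation within a group was 1.73% to 5.28% for Gja1 and 4.34% to 11.2% for Gfap in the spinal cord, against 3.12% to 9.52% and 7.82% to 32.9% in the midbrain. For Vim it was 11.2% to 19.9% against 8.99% to 20.8%, for Aqp4 1.65% to 21.1% against 4.87% to 16.9%, and for spinal cord Lcn2 14.6% to 44.3%. Gfap, Aqp4 and C4b had the lowest adjusted p in the MPTP-Veh comparison with Con, at folds below 1.5, and Lcn2 was the 1 member beyond 1.5-fold.

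For MPTP-Veh against Con in the spinal cord, edgeR called 0 of 10 members and 0% of 16682 genes, and DESeq2 and limma-voom 0 members. An unadjusted p below 0.05 was reached by 4 members, against 2137 of the 16682 genes. Gfap was the 1 member whose groups did not overlap, against 4.73% of all genes. It was 929.9, 1165, 1132 and 1145 CPM in Con and 1447, 1252, 1299 and 1340.5 CPM in MPTP-Veh. Each MPTP-Veh library was above each Con library, and Con replicate 1 lay well below its group. The log2 difference was 0.29 ± 0.08 (edgeR adjusted p = 0.190; exact permutation p = 0.0286), and 0.22 (adjusted p = 0.594) without Con replicate 1. Over all alternatives the adjusted p ranged from 0.0319 to 0.594, always with a fold below 1.5.

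C4b was 46.1, 50.7, 58.8 and 49.9 CPM in spinal cord Con and 70.1, 61.4, 58.6 and 58.3 CPM in MPTP-Veh. The groups overlapped at Con replicate 3, and the log2 difference was 0.27 ± 0.08 (edgeR adjusted p = 0.202). Aqp4 was 442, 756, 617 and 626 CPM in Con and 698, 798, 757 and 856 CPM in MPTP-Veh, overlapping at Con replicate 2, with a log2 difference of 0.35 ± 0.10 (edgeR adjusted p = 0.207). The other well-counted members lay between -0.14 for Aldh1l1 and 0.08 for Serpina3n. Of 12 complement genes all 12 had higher means in MPTP-Veh (median 0.28) and 0 passed the threshold. The 14 pan-reactive genes had a median of 0.22 with 10 positive, and the 24 other identity genes a median of -0.01 with 11 positive, with 0 past the threshold in each list. Microglial markers summed to 202 to 236 CPM in Con and 245 to 257 CPM in MPTP-Veh, and oligodendrocyte markers to 19251 to 21622 and 21742 to 22490 CPM. Neither sum overlapped, and the part of those cells in the member values was not tested.

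With SUEHP (MPTP-SU against MPTP-Veh) edgeR again called 0 of 10 spinal cord members and 0% of all genes. DESeq2 and limma-voom called 0 members, and 3 members had an unadjusted p below 0.05, against 636 of 16682 genes. C4b did not overlap, at 50.3, 50.1, 55.0 and 58.3 CPM in MPTP-SU, although its highest value nearly equalled the lowest of MPTP-Veh. Its log2 difference was -0.22 ± 0.08 (edgeR adjusted p = 0.999; exact permutation p = 0.0286), and 3.27% of all genes did not overlap. Gfap was 1032, 1125, 1325 and 1266 CPM in MPTP-SU, with a log2 difference of -0.17 ± 0.08 (edgeR adjusted p = 0.999) and overlapping groups. Against Con, 0 of 10 members and 0% of all genes were called in MPTP-SU by edgeR, and 0 members by DESeq2 and limma-voom. In that comparison 1 member, Aqp4 (0.28 ± 0.10, edgeR adjusted p = 0.470), had an unadjusted p below 0.05, against 1530 of 16682 genes. The groups did not overlap for 0 members and 3.51% of all genes.

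The lowest adjusted p of a member within the spinal cord was that of C4b in MPTP-SU+T against MPTP-SU. It was 62.1, 69.0, 69.2 and 76.4 CPM in that group against 50.3, 50.1, 55.0 and 58.3 CPM in MPTP-SU. Every MPTP-SU+T library was above every MPTP-SU library, and the log2 difference was 0.37 ± 0.07 (edgeR adjusted p = 0.0930; exact permutation p = 0.0286). Over the alternatives the log2 difference stayed between 0.32 and 0.41, below 1.5-fold, and the adjusted p ranged from 0.00131 to 0.356. Gfap was 1398.5, 1339.7, 1351 and 1472 CPM in MPTP-SU+T, again above all MPTP-SU libraries, at 0.23 ± 0.08 (edgeR adjusted p = 0.249). Aqp4 was 582, 693, 625 and 635 CPM against 723, 739, 753 and 741 CPM, below all MPTP-SU libraries, at -0.22 ± 0.10 (edgeR adjusted p = 0.365). These were the 3 members without overlap, against 8.04% of all genes. The edgeR test called 0 of 10 members and 0.024% of genes, and DESeq2 and limma-voom 0 members. An unadjusted p below 0.05 was reached by 3 members, against 2015 of 16682 genes. The 13 mitochondrially encoded genes summed to 116634 to 131583 CPM in MPTP-SU+T and to 149902 to 165126 CPM in MPTP-SU. With library sizes counted without them the C4b difference was 0.33 (adjusted p = 0.164).

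In MPTP-SU+S against MPTP-SU, edgeR called 0 of 10 spinal cord members and 0% of all genes, and DESeq2 and limma-voom 0 members. An unadjusted p below 0.05 was reached by 2 members, Sox9 and Lcn2, against 916 of 16682 genes. Aqp4 was the 1 member without overlap, against 4.19% of all genes, at 779, 820, 817 and 886 CPM in MPTP-SU+S and 723 to 753 CPM in MPTP-SU (0.16 ± 0.10, edgeR adjusted p = 0.902). Aqp4 was thus above MPTP-SU with the CB1 antagonist and below it with the PPARγ inhibitor. In MPTP-SU its coefficient of variation was 1.65%, the lowest of the 5 spinal cord groups. The 13 mitochondrially encoded genes had mean sums in the same order: 172814 CPM in MPTP-SU+S, 157162 CPM in MPTP-SU and 124961 CPM in MPTP-SU+T. Their part in the Aqp4 values was not tested. The direct difference between the 2 drug groups was not tested, and the comparisons share the MPTP-SU libraries.

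**Figure D4:**
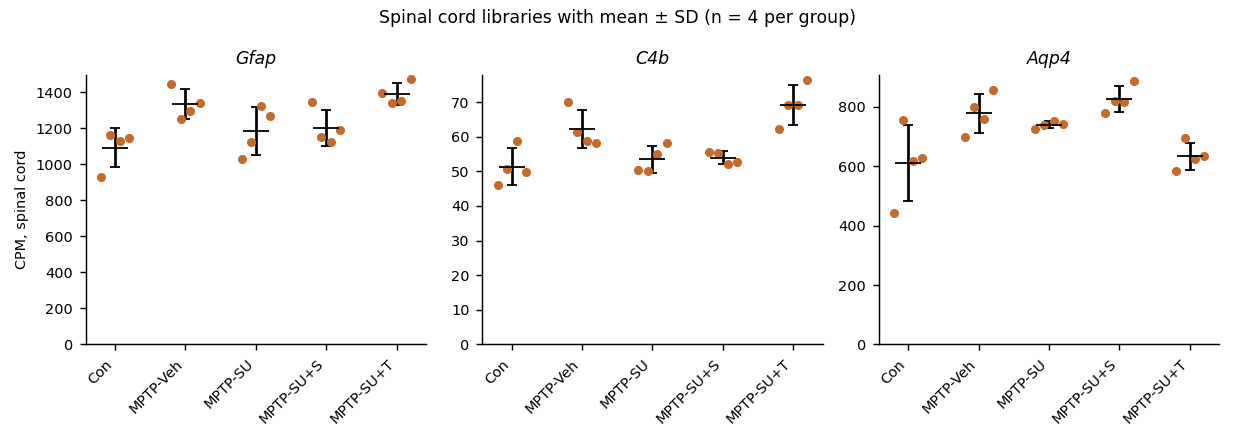
CPM of Gfap, C4b and Aqp4 in the 20 spinal cord libraries by group, with points for libraries and a bar at the mean ± SD (n = 4 per group); every axis starts at 0. Gfap and C4b are highest in MPTP-SU+T (1390.3 ± 60.3 and 69.2 ± 5.84 CPM), where Aqp4 (634 ± 45.6 CPM) is near its Con level (610.3 ± 129 CPM).

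Ordered by group mean, spinal cord Gfap was lowest in Con (1093 ± 109.7 CPM), followed by MPTP-SU (1187 ± 133), MPTP-SU+S (1203 ± 101), MPTP-Veh (1335 ± 83.2) and MPTP-SU+T (1390.3 ± 60.3). C4b had the same order, from 51.4 ± 5.32 through 53.4 ± 3.96, 54.0 ± 1.81 and 62.1 ± 5.51 to 69.2 ± 5.84 CPM. Neighbouring groups overlapped throughout, except that every MPTP-Veh library was above every MPTP-SU+S library for C4b. Aqp4 had another order, from Con (610.3 ± 129 CPM) and MPTP-SU+T (634 ± 45.6) to MPTP-SU (739 ± 12.2), MPTP-Veh (777 ± 66.5) and MPTP-SU+S (826 ± 44.4), with the only gap between neighbours at MPTP-SU+T and MPTP-SU.

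Lcn2, the reactivity gene that neutrophils also make, was barely counted in the midbrain and low in the spinal cord. In the midbrain its counts were 0 to 9 per library, and 8 of 20 libraries held none. A count of 0 allows up to 3 counts, or 0.170 to 0.282 CPM in those 8 libraries by counting error alone. Midbrain Con libraries held 7, 2, 0 and 0 counts and spinal cord Con libraries 59, 28, 45 and 24. On the scale of all 40 libraries that was 0.142 ± 0.211 against 2.50 ± 1.02 CPM, with a fitted log2 difference of -4.08 ± 0.59 and of -5.69 without midbrain Con replicate 1, which held 7 of the 9 midbrain Con counts. Since Lcn2 passed the filter through the spinal cord alone, these are a description with no test.

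Within the spinal cord Lcn2 was 3.92, 2.11, 2.61 and 1.44 CPM in Con, 1.70, 1.51, 1.40 and 0.591 CPM in MPTP-Veh, and 2.81, 3.76, 1.40 and 1.74 CPM in MPTP-SU. The groups overlapped. The log2 difference was -0.94 ± 0.33 (edgeR adjusted p = 0.263) for MPTP-Veh against Con, 0.88 ± 0.33 (edgeR adjusted p = 0.999) for MPTP-SU against MPTP-Veh and -0.70 ± 0.33 (edgeR adjusted p = 0.899) for MPTP-SU+S against MPTP-SU. Neutrophil markers had the same signs: 0 of 7 tested were positive in the first (median -0.81), 6 of 7 in the second (median 0.81) and 0 of 7 in the third (median -0.47). None of these passed the threshold. Summed over 8 genes they were 51.8, 22.5, 26.2 and 5.47 CPM in Con, 23.8, 11.5, 9.56 and 10.7 CPM in MPTP-Veh and 31.9, 18.4, 10.1 and 32.8 CPM in MPTP-SU, and none of the 8 was at 0 in all libraries of a group. The Con library with the most Lcn2 also held the most neutrophil marker counts and the one with the least held the fewest. In MPTP-SU the order differed: replicate 2 had the most Lcn2 (3.76 CPM) at 18.4 CPM of markers, and replicate 4 the most markers (32.8 CPM) at 1.74 CPM of Lcn2. In MPTP-SU+T replicate 1 had the most markers (32.8 CPM) and the least Lcn2. Their part in the Lcn2 values was not tested.

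**Figure D5:**
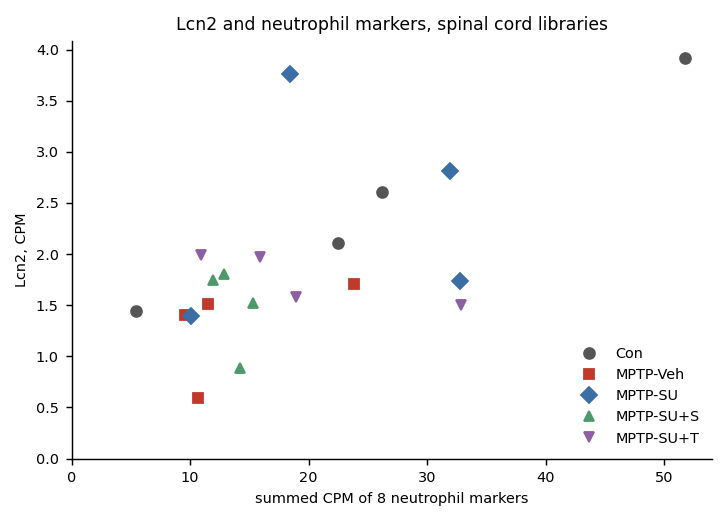
Lcn2 (CPM, vertical) against the summed CPM of 8 neutrophil markers (horizontal) in the 20 spinal cord libraries, with 1 symbol per group. Con replicate 1 is highest on each axis (3.92 and 51.8 CPM), and Con replicate 4 has the lowest marker sum (5.47 CPM).

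The response to MPTP and SUEHP was compared between the tissues in a joint fit of all 40 libraries. For MPTP-Veh against Con, 1 of 10 members differed between the tissues past the threshold, S100b, with a log2 difference in response (midbrain minus spinal cord) of 1.12 ± 0.32 (edgeR adjusted p = 0.0494), and 2.45% of all genes passed. For MPTP-SU against MPTP-Veh 3 members differed, against 12.1% of all genes: S100b (-1.34 ± 0.32, edgeR adjusted p = 0.00697), Sox9 (-0.71 ± 0.17, edgeR adjusted p = 0.00614) and Aldh1l1 (-1.12 ± 0.37, edgeR adjusted p = 0.0359). All 3 are identity genes, but the calls do not separate the sets. The reactivity gene Gfap was at -0.85 ± 0.36 (edgeR adjusted p = 0.0895) in the second comparison. The identity genes Aqp4 (0.91 ± 0.36) and Gja1 (0.17 ± 0.19) had the opposite sign there. Without midbrain MPTP-Veh replicate 4 no member differed in the first, and in the second S100b (-0.61, adjusted p = 0.00286) and Aqp4 (0.59, adjusted p = 0.0176) passed. Sox9 kept an adjusted p of 0.00685 at -0.45, below 1.5-fold. The S100b response was negative in the midbrain (-0.52 without that library) and 0.11 ± 0.06 in the spinal cord.

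C4b and Serpina3n have near copies in the mouse genome, so their counts could share reads. C4a, whose transcript was 95.9% identical to that of C4b, was at most 1.70 CPM and at most 3.87% of C4b in any library. Relatives of Serpina3n were 74.2% to 81.0% identical to it and in the spinal cord at most 5.34% of its count. In midbrain MPTP-Veh replicate 4 Serpina3g reached 31.5% and Serpina3m 15.8% of Serpina3n, their highest shares in the midbrain. The midbrain median of Serpina3g was 2.95 CPM. Serpina3k, at 0 CPM in the median midbrain library, reached 24.7 CPM in MPTP-Veh replicate 4 against 17.3 CPM of Serpina3n. Serpina3n values of that library are uncertain for this reason.

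The genes most like the members were sought by the mean correlation of log2 CPM, each centred on its group mean, over the 20 libraries of a tissue. They are given as a description, since the points share libraries and depth. For the midbrain reactivity members they were Kif7 (mean r = 0.598), Col1a1 (0.588), Icam1 (0.572), Vtn (0.570) and Ccdc3 (0.566), and Kif7 and Ccdc3 were also among the highest 5 over the 19 libraries without MPTP-Veh replicate 4. For the midbrain identity members no gene exceeded 0.193 (Wwc2) over 20 libraries, and over the 19 the highest 5 were other genes, led by 1700018L02Rik (0.330). For the spinal cord reactivity members they were Zfp524 (0.493), Atg16l2 (0.491), Ctdsp2 (0.482), Slc25a1 (0.481) and Bcl6 (0.480), and for the identity members Gm3264 led (0.395), followed by Rbm28 (0.385).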

How the data were processed

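Poly(A) RNA of the midbrain and the spinal cord was sequenced by the study as paired 100-base reads. The authors deposited 1 table per library of Salmon estimated counts per gene symbol, already rounded to whole numbers; the submitters' processing notes also name fastp, STAR, GATK and the build GRCm39, and the annotation is not given in the sources used here. The sample labels and the study's methods name different RNA kits. Low totals per gene limit precision, and intervals and floors cover counting error only: a count of 0 is given with the 3 counts it allows.

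Each tissue was fitted on its own over its 20 libraries, with the 5 groups as terms, by edgeR 4.0.16 (TMM scaling, quasi-likelihood test, Benjamini-Hochberg adjustment over all genes tested) in R 4.3.3. Genes were kept by edgeR's filter at a minimum count of 10, and a gene was called at an adjusted p below 0.05 and a fold above 1.5. A joint fit of all 40 libraries gave the tissue comparison in Con and the difference between tissues in each response. CPM values are TMM-scaled, within a tissue unless stated. Exact two-sided permutation tests used log2(CPM + 0.1). Marker sums are sums of CPM. DESeq2 1.42.0, limma-voom (limma 3.58.1) with and without library quality weights, other scalings and filters, fitting the 8 libraries of a comparison alone, a replicate block and leaving out each library in turn were alternatives. Leaving midbrain MPTP-Veh replicate 4 out of comparisons it is no part of, and out of the list counts, was chosen after seeing the data. The fits were tested on simulated data with known fold changes.

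The members and lists were chosen with earlier results of these data known. All 10 members are named, and of each other list at most the 3 genes with the smallest p in each direction among those called. Transcript lengths came from GENCODE vM21 and promoters from RefSeq, both on GRCm38, so no position was taken from the count files. Some genes of the other lists are counted but not reported here by name.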

Additional observations from a re-analysis of the deposited data

Results flagged for a closer look

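In 9 of 95 member and group combinations (9.47%) 1 of the 4 libraries lay far from the other 3 by Dixon's criterion at the 95% level, which chance meets in about 1 in 20 groups. Of these, 5 were midbrain MPTP-Veh replicate 4: Aldh1l1 at 244 CPM (nearest library 58.0), S100b at 1019 CPM (309), Sox9 at 123 CPM (71.2) and Gfap at 969.8 CPM (305) were high, and Gja1 at 101 CPM (229) was low. The other 4 lay in 4 different libraries. Aqp4 was 234 CPM in midbrain MPTP-SU replicate 4, where the nearest library held 314 CPM. Aldh1l1 was 61.4 CPM in midbrain Con replicate 1 (nearest 48.8 CPM). Gja1 was 228 CPM in midbrain MPTP-SU+S replicate 1 (nearest 251 CPM). Gfap was 929.9 CPM in spinal cord Con replicate 1 (nearest 1132 CPM).

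The response differed between the tissues past the threshold for 3 members, all identity genes. The calls do not separate the sets, since the reactivity gene Gfap was at -0.85 (edgeR adjusted p = 0.0895) for MPTP-SU against MPTP-Veh, larger in size than Sox9. For MPTP-Veh against Con the S100b response was higher in the midbrain by 1.12 on the log2 scale, and 2.45% of all genes passed. For MPTP-SU against MPTP-Veh the difference (midbrain minus spinal cord) was -1.34 for S100b, -1.12 for Aldh1l1 and -0.71 for Sox9, and 12.1% of all genes passed. Without midbrain MPTP-Veh replicate 4 the first value was 0.42 (edgeR adjusted p = 0.0942), and of the others S100b (-0.61) alone was past both limits. The identity gene Aqp4 then passed as well, with the opposite sign (0.59, edgeR adjusted p = 0.0176).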

How the results depend on the processing

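Of 2449 member values over all alternatives, 2215 kept their direction and their side of the threshold, 37 crossed it and 61 fell below it with the same direction, and 136 had the opposite sign. In 122 of these 136 the reported value was within 1 SE of 0 and not past the threshold (at most 0.19 in size), and the other 14 are given with their values; of the counts of called members 239 were within 1.5 times the reported one and 42 were not. Depth limited Lcn2 in the midbrain. For the Con tissue comparison 6 to 8 members were called. That count includes Lcn2 where it was tested, although its lower midbrain level was fixed by the filter.

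In midbrain MPTP-SU against MPTP-Veh the 4 calls became 2 with limma-voom, 0 with library quality weights, 2 with the replicate block, 0 with the 8 libraries alone and 0 to 5 with 1 library left out: 2 without MPTP-SU replicate 1, 1 without replicate 2, 2 without replicate 4 and 0 without MPTP-Veh replicate 4. In midbrain MPTP-Veh against Con the 0 calls became 1 with DESeq2, 2 at an unadjusted p and 0 to 2 with 1 library left out (2 without MPTP-Veh replicate 3). In midbrain MPTP-SU against Con they became 1 with quality weights, Gfap. At an unadjusted p 1 member, Lcn2, was called in spinal cord MPTP-Veh against Con, MPTP-SU against MPTP-Veh and MPTP-SU+S against MPTP-SU. For the difference between tissues in MPTP-SU against MPTP-Veh the 3 calls became 6 at an unadjusted p and 2 to 5 with 1 library left out (5 without midbrain MPTP-Veh replicate 2 or 3). In MPTP-Veh against Con the 1 call became 2 with DESeq2, 3 at an unadjusted p, 0 to 4 with 1 library left out, and 0 with library size alone, without mitochondrially encoded genes, with limma-voom, with no filter and with either replicate block. The cause of these changes was not tested.

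The 14 sign changes beyond 1 SE arose under limma-voom quality weights or with 1 library left out, in all but 1 of the latter midbrain MPTP-Veh replicate 4. For midbrain MPTP-Veh against Con, C4b was -0.20 under quality weights and -0.17 to 0.43 with 1 library left out, Gfap -0.25 and -0.25 to 0.70, and Gja1 0.036 and -0.30 to 0.031. For midbrain MPTP-SU against MPTP-Veh, Gja1 was -0.018 under quality weights and -0.041 to 0.29 with 1 library left out. In the difference between tissues C4b was 0.040 and -0.51 to 0.11 for MPTP-SU against MPTP-Veh, and Gja1 0.023 and -0.29 to 0.032 for MPTP-Veh against Con. Lcn2 in the latter was 0.42 under quality weights and -3.26 to 0.046 with 1 library left out, the sign turning without midbrain Con replicate 1.

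Over all genes, the 2237 calls of midbrain MPTP-SU against MPTP-Veh were 854 with quality weights, 0 with the 8 libraries alone and 572 without MPTP-Veh replicate 4. The 127 of MPTP-SU against Con were 422 with DESeq2, 362 with library size alone, 623 without mitochondrially encoded genes, 936 with quality weights and 712 with the 8 libraries alone, and the 3 of MPTP-Veh against Con were 446 with DESeq2, 90 with quality weights and 0 with limma-voom. The 2115 of the difference between tissues in MPTP-SU against MPTP-Veh were 955 with quality weights and 688 without that library, and the 427 in MPTP-Veh against Con ranged from 1 with library size alone to 1361 with DESeq2. In the spinal cord, MPTP-SU+T against MPTP-SU had 4, but 21 with quality weights, 27 with no filter and 13 with the 8 libraries alone, and MPTP-Veh against Con had 0, but 19 with no filter.

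Replicate numbers did not pair the libraries: same-numbered libraries correlated above 0.1 in 13 of 40 midbrain, 6 of 40 spinal cord and 2 of 20 between-tissue pairs (median r = 0.024, 0.0033 and 0.053), so the replicate block is an alternative only.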
